A study of Mus musculus with 6 samples.

Results

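The 33 genes described here encode the mitochondrial oxidation of fatty acids and were named by their place in the pathway: 5 of acyl activation, 6 of the carnitine shuttle and its control, 7 acyl-CoA dehydrogenases, 8 of the remaining steps of the spiral, 3 of electron transfer and 4 thioesterases. All 33 were found among the 21900 distinct symbols of the deposited expression table, and all 33 reached the mean of 1 FPKM in either group that a gene needed to be tested, as 10787 genes did. FPKM counts the reads on a gene per kilobase of its exons and per number of reads in the library, so levels of different genes can be set beside each other. The RNA came from inguinal white fat, taken from C57BL/6 mice of 2 months that had lived at 22 °C on chow and were then kept at 4 °C for 7 days. The 3 controls have the genotype Foxp4fl/fl, in which the forkhead transcription factor gene Foxp4 is flanked by loxP sites. The 3 knockouts have the genotype Foxp4AdipoQdelta/delta, in which that gene is deleted by a Cre recombinase under the adiponectin promoter, a promoter of adipocytes. Cold exposure, strain, age and the floxed gene are common to both groups, and no animals kept warm were analysed here. The labels give the Cre to the knockouts only, so an effect of the driver and an effect of losing Foxp4 cannot be told apart. They do not say whether a sample is 1 mouse or a pool, so each p-value reflects the spread of 6 samples that may differ in part technically.

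Fatty acids enter mitochondria as acyl groups joined to coenzyme A and then to carnitine, and are shortened there by repeated rounds of dehydrogenation, hydration, a further dehydrogenation and thiolytic cleavage. Each round passes electrons to the respiratory chain and releases acetyl-CoA. In fat kept in the cold, thermogenic adipocytes burn fatty acids in this way to make heat, and many of the enzymes are known targets of the PPAR and ERR nuclear receptors and their PGC-1 coactivators.

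The libraries held 13136927 to 15963023 reads on annotated genes, as recovered from the deposited values. Foxp4 had 5.76, 4.01 and 4.62 FPKM among controls and 1.92, 1.71 and 1.64 FPKM among knockouts, lower in every knockout than in any control. Adipocyte markers were abundant in every library. The summed level of the 9 markers of thermogenic adipocytes was 1548 to 3372 FPKM in controls and 3459 to 5136 FPKM in knockouts, with Ucp1 at 799.9, 1333 and 2007 FPKM and 2898, 3009 and 1875 FPKM. The 13 skeletal muscle markers, of which Tnnc2 was listed at 0 throughout, summed to 51.0 to 106 FPKM in controls and 53.2 to 410.4 FPKM in knockouts, highest in knockout replicate 3. The 9 macrophage markers summed to 583 to 777 FPKM in controls and 368 to 478 FPKM in knockouts. All 9 were lower at an unadjusted p of 0.05 in limma (17.1% of all genes tested) and without overlap (22.7% of all genes tested). The 7 adipose progenitor markers summed to 329 to 533 FPKM in controls and 291 to 313 FPKM in knockouts, without overlap. At an unadjusted p of 0.05 in limma, 5 of the 7 were lower, as were 17.1% of all genes tested. Lum, also of the 7, had a log2 fold change of 0.041. The 10 markers of mature adipocytes summed to 13157 to 14539 FPKM and 10481 to 11389 FPKM. Much of this sum was Cfd, the most abundant of them, with means of 6162 and 4000 FPKM. At an unadjusted p of 0.05 in limma, 3 of the 10 were lower and 0 higher (17.1% and 6.98% of all genes tested). The log2 fold change was above 0 in 2 of the 10. The 6 lymphocyte markers summed to at most 2.42 FPKM and the 5 epithelial markers, with Krt14 listed at 0, to at most 1.13 FPKM. In whole tissue, fewer cells of a type and less RNA per cell cannot be told apart, and the part of these cell types in the results below was not tested.

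Control replicate 1 and, at the other end, knockout replicate 2 stood apart in this pathway. Control replicate 1 had the lowest value of all 6 libraries in 26 of the 33 genes (78.8%), whereas it was lowest in 16.5% of all genes tested. Knockout replicate 2 had the highest value in 27 of the 33, whereas it was highest in 14.85% of all genes tested. The 33 genes together came to 3238, 4589 and 4266 FPKM in the controls and to 4683, 5217 and 4372 FPKM in the knockouts, so that knockout replicate 3 lay below control replicate 2. The sum of the 9 thermogenic markers was likewise lowest in control replicate 1 and highest in knockout replicate 2. Of the 9 genes, 7 were lowest in control replicate 1 and all 9 highest in knockout replicate 2. The median standard deviation of a member was 18.4% of its mean among controls and 9.41% among knockouts, against 11.4% and 8.84% over all genes tested.

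**Figure D1:**
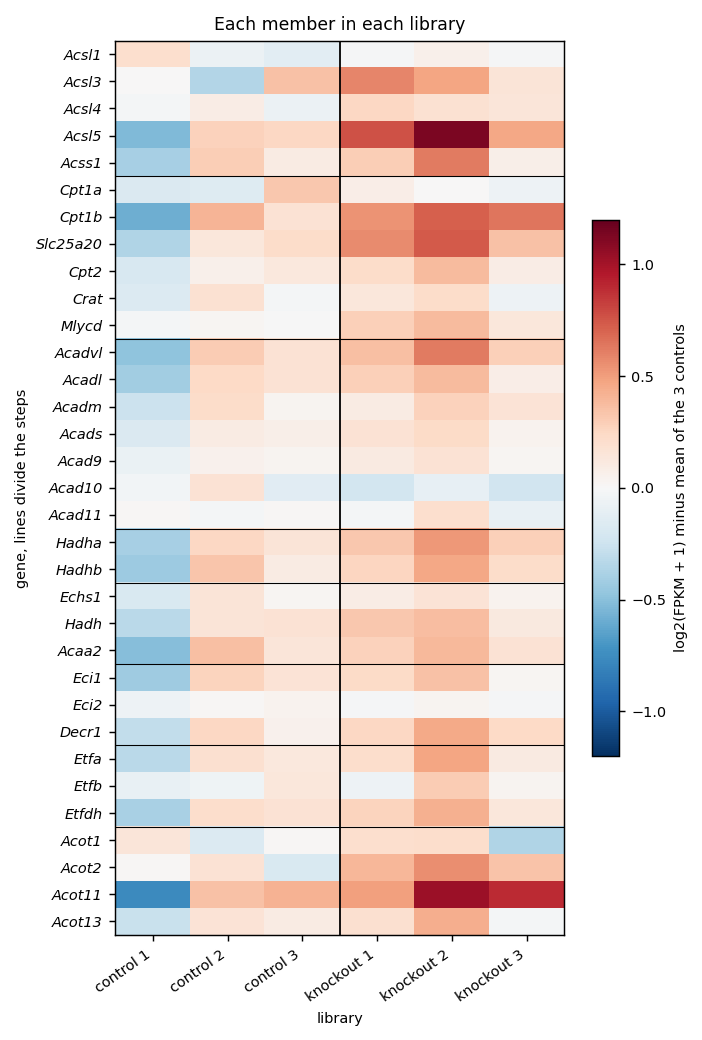
Colour shows log2(FPKM + 1) of each of the 33 genes in each library minus the mean of the 3 controls, with libraries in columns, genes in rows and lines between the steps of the pathway. The column of control replicate 1 is blue in most rows, as it held the lowest value in 26 of the 33 genes, and knockout replicate 2 held the highest in 27.

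Most of the pathway had slightly higher values in the knockouts, without any gene passing the test. The fitted log2 fold change, knockout minus control on log2(FPKM + 1), was above 0 in 32 of the 33 genes and below 0 in Acad10, with a median of 0.25. Over all genes tested the median was -0.082 and 34.0% were above 0. The ratio of the group means ran from 0.859 for Acad10 to 1.85 for Cpt1b, and was under 1.2 in 21 genes. None of the 33 passed an adjusted p of 0.05 in limma, where 0.00927% of all genes tested did, a single gene, myoglobin (Mb). None passed with voom on recovered reads either. At an unadjusted p of 0.05, 7 of the 33 were higher in the knockouts (21.2%, against 6.98% of all genes tested) and 0 were lower (17.1% of all genes tested). These were the activating enzymes Acsl4 and Acsl5, the shuttle genes Cpt1b, Slc25a20 and Mlycd, and the thioesterases Acot2 and Acot11. In 8 genes, those 7 and Hadha, all knockouts lay above all controls (24.2%, against 8.48% of all genes tested), and in none did they all lie below (22.7% of all genes tested).

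Without control replicate 1 the median was 0.099, against -0.083 over all genes, and 29 of the 33 fold changes were above 0. In 21 of the 29 the log2 fold change from all libraries was over 1.5 times that without control replicate 1. At an unadjusted p of 0.05, 6 of the 33 were then higher (18.2%, against 5.10% of all genes tested), all of them among the 7 named above, which leaves out Acsl4. Without knockout replicate 2 the count was 1 (3.03%, against 3.73% of all genes tested), and the gene was Acot2. It was 4 without knockout replicate 1 (12.1%, against 4.84% of all genes tested) and 11 without control replicate 2 (33.3%, against 6.31%). A fit with replicate number as a block gave 9 (27.3%, against 5.92%), and voom on recovered reads gave 14 (42.4%, against 12.0%). When the libraries were scaled by the median of ratios, 14 of the 33 were higher (42.4%, against 13.0% of all genes tested) and 0 lower. That scaling moved the calls at an unadjusted p of 0.05 over all genes from 753 higher and 1848 lower to 1404 higher and 1000 lower.

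**Figure D2:**
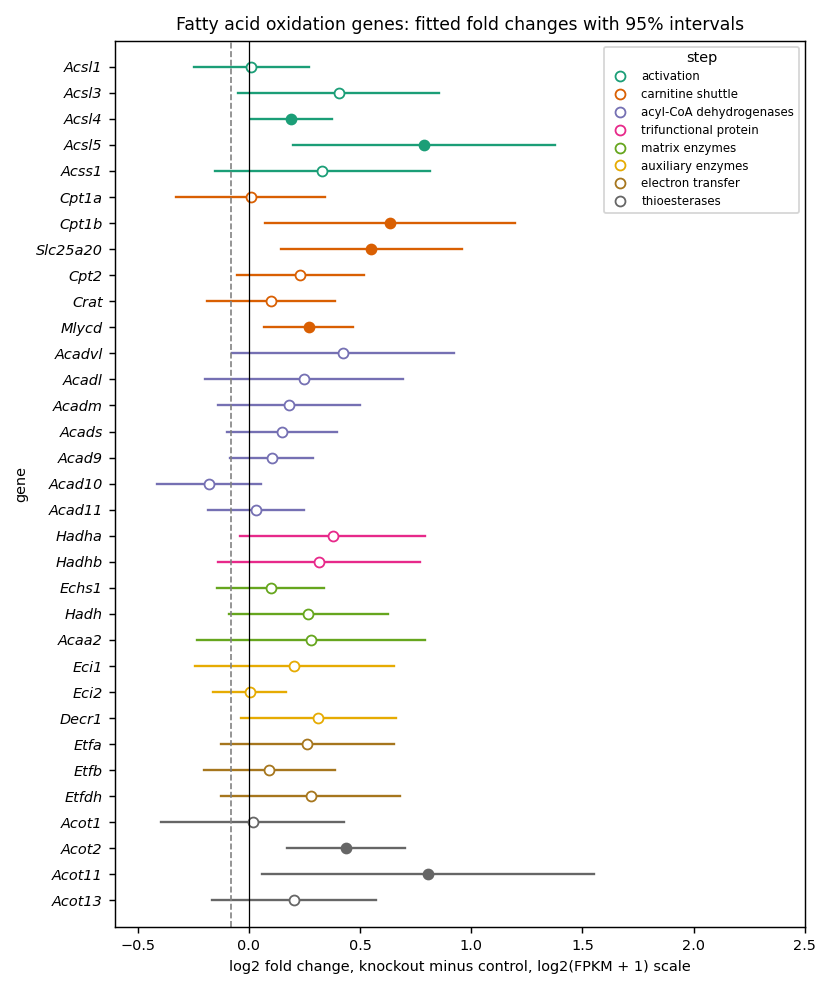
Points are fitted log2 fold changes (knockout minus control) of the 33 genes with 95% intervals, coloured by step. Filled points have an unadjusted p under 0.05, and the dashed line is the median of all genes tested (-0.082). The 7 filled points lie in activation, the shuttle and the thioesterases, and the points of the other 5 steps are open.

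**Figure D3:**
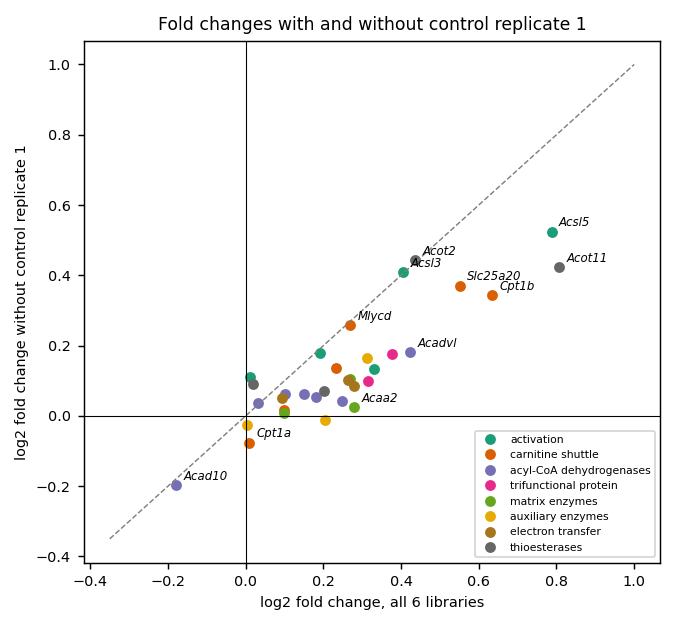
Each point is a gene, with its log2 fold change from all 6 libraries on the horizontal axis and without control replicate 1 on the vertical axis. The dashed line marks equal values. Most points lie below it, while Acot2, Acsl3 and Mlycd lie close to it.

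Long-chain acyl-CoA synthetases join fatty acids to coenzyme A, and the highest log2 fold change of the step was that of Acsl5, which is far less abundant than Acsl1. Acsl1, the chief synthetase of adipocytes (chromosome 8, 46471037 to 46536051, plus strand, mm10), had 384, 319 and 305 FPKM among controls and 332, 348 and 329.9 FPKM among knockouts. The groups of Acsl1 overlapped fully and their means were nearly equal, with a log2 fold change of 0.01 (95% interval -0.25 to 0.27, adjusted p = 0.96 in limma). Acsl5 (chromosome 19, 55251938 to 55297720, plus strand), a synthetase of the mitochondrial outer membrane and endoplasmic reticulum, had 20.7, 36.9 and 36.1 FPKM among controls and 52.2, 67.2 and 42.2 FPKM among knockouts. Its lowest knockout lay above its highest control, and control replicate 1 was the lowest library by a wide margin. Limma gave a log2 fold change of 0.79 for Acsl5 (SE 0.25, adjusted p = 0.14), and 0.52 without control replicate 1. Acsl4, which prefers polyunsaturated fatty acids such as arachidonate, had 6.57, 7.20 and 6.35 FPKM among controls and 8.12, 7.76 and 7.49 FPKM among knockouts. The gap between the groups of Acsl4 was narrow, and limma gave a log2 fold change of 0.19 for Acsl4 (SE 0.078, adjusted p = 0.20). Acsl3, a synthetase tied to lipid droplets, had 4.27, 3.09 and 5.67 FPKM among controls and 6.86, 6.29 and 4.82 FPKM among knockouts, with overlap between the groups (log2 fold change 0.40, SE 0.19, adjusted p = 0.25 in limma). Acss1, which activates acetate in the mitochondrial matrix, also overlapped, at 15.2 ± 3.76 and 19.2 ± 3.95 FPKM (SD, n = 3). Acsl1 made up 88.6 ± 3.29% of the summed FPKM of the 4 Acsl genes in controls and 83.3 ± 2.37% in knockouts (SD, n = 3), and Acsl5 8.43 ± 2.98% and 13.2 ± 2.33%.

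The carnitine shuttle held 3 of the 7 genes with a small unadjusted p, among them the carrier itself. Slc25a20 (chromosome 9, 108662088 to 108684641, plus strand), which exchanges acylcarnitine for carnitine across the inner membrane, had 54.3, 77.0 and 81.7 FPKM among controls and 104, 117 and 89.5 FPKM among knockouts. All knockouts lay above all controls, and the distance from the highest control to the lowest knockout was smaller than the spread within either group. Limma gave a log2 fold change of 0.55 for Slc25a20 (SE 0.17, adjusted p = 0.13). The value of Slc25a20 was 0.37 with control replicate 1 left out and 0.46 with knockout replicate 2 left out. Mlycd, malonyl-CoA decarboxylase, removes the malonyl-CoA that inhibits the first enzyme of the shuttle. Mlycd (chromosome 8, 119394878 to 119411102, plus strand) had 39.6, 40.9 and 40.0 FPKM among controls, the tightest control group of the shuttle, and 49.3, 52.5 and 44.3 FPKM among knockouts. The groups of Mlycd did not overlap, limma gave a log2 fold change of 0.27 for Mlycd (SE 0.085, adjusted p = 0.13), and the value changed little without control replicate 1 (0.26).

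Carnitine palmitoyltransferase 1, the committed step, has a liver-type form, Cpt1a, and a muscle-type form, Cpt1b, that brown fat also uses. Cpt1a had 6.73, 6.80 and 9.92 FPKM among controls and 8.22, 7.72 and 7.33 FPKM among knockouts. The knockouts of Cpt1a lay inside the range of the controls, and the log2 fold change was 0.008 (95% interval -0.33 to 0.34, adjusted p = 0.98 in limma). Cpt1b (chromosome 15, 89416405 to 89425863, minus strand) had 0.526, 2.03 and 1.58 FPKM among controls and 2.33, 2.77 and 2.57 FPKM among knockouts. Control replicate 1 was far below the other 5 libraries, and the other controls came close to the knockouts without overlap. Limma gave a log2 fold change of 0.64 for Cpt1b (SE 0.24, adjusted p = 0.17), and 0.34 without control replicate 1. Few reads lie behind these values, 25 to 100 in a control and 116 to 131 in a knockout. Skeletal muscle also expresses Cpt1b, and the actin Acta1 of muscle had 25.6, 6.33 and 18.1 FPKM among controls and 8.06, 28.9 and 103 FPKM among knockouts. The part of muscle RNA in the Cpt1b values was not tested. Exons annotated to the readthrough transcript Gm44502, which joins Cpt1b to its neighbour Chkb on the same strand, cover 81.4% of the Cpt1b exon bases, and Gm44502 is listed at 0 in every library. How reads shared by 2 genes were counted is not given in the sources used here, so the level of Cpt1b beside that of Cpt1a is uncertain.

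The other shuttle genes overlapped between groups. Cpt2, which returns the acyl group to coenzyme A inside the mitochondrion, was the most abundant gene of the step, at 153, 182 and 191 FPKM among controls and 204, 228 and 186 FPKM among knockouts. Knockout replicate 3 lay below control replicate 3, and limma gave a log2 fold change of 0.23 for Cpt2 (SE 0.12, adjusted p = 0.29), and 0.14 without control replicate 1. Crat, which makes short-chain acylcarnitines, had 123 ± 15.3 and 132 ± 13.3 FPKM (SD, n = 3).

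**Figure D4:**
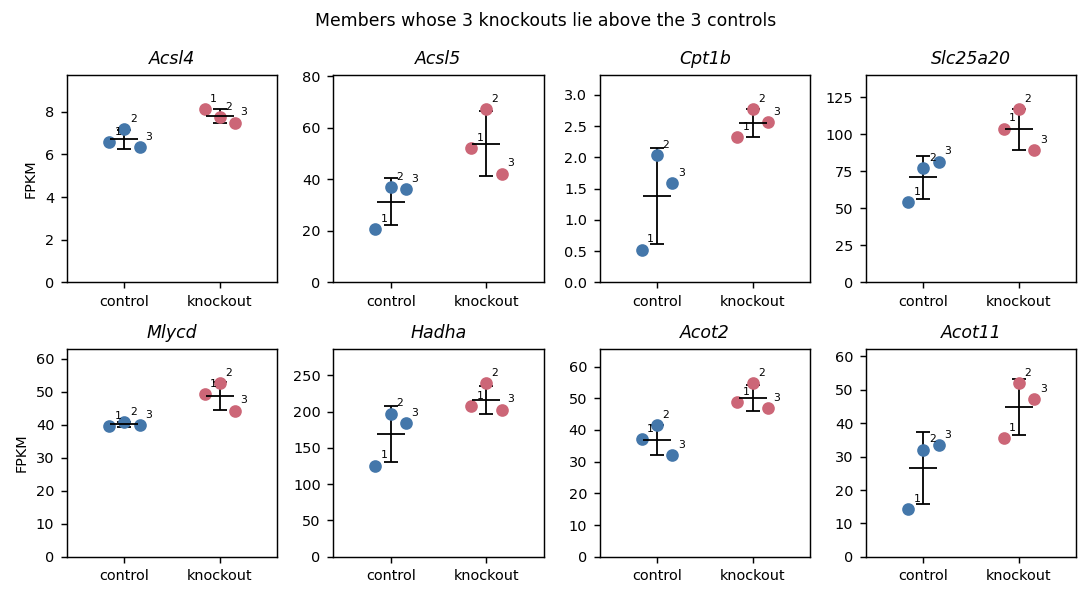
FPKM of the 8 genes whose knockouts all lie above all controls, on axes that start at 0, with 1 point per library numbered by replicate and bars for the mean and SD (n = 3 per group). Control replicate 1 is the lowest point of Acsl5, Cpt1b, Slc25a20, Mlycd, Hadha and Acot11, whereas control replicate 3 is the lowest of Acsl4 and Acot2.

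Acyl-CoA dehydrogenases take the first electrons from the acyl chain and divide the work by chain length. None of the 7 had an unadjusted p under 0.05, and their median log2 fold change was 0.15, and 0.053 without control replicate 1. The most abundant of all 33 genes was Acadl, the long-chain enzyme (chromosome 1, 66830839 to 66863277, minus strand), at 431, 677 and 649 FPKM among controls and 699, 749 and 606 FPKM among knockouts. Controls 2 and 3 of Acadl lay within the range of the knockouts, and its log2 fold change of 0.25 (SE 0.19, adjusted p = 0.44 in limma) became 0.041 without control replicate 1. Acadvl, the very-long-chain enzyme of the inner membrane, had 155, 269 and 245 FPKM among controls and 279, 335 and 265 FPKM among knockouts. One knockout of Acadvl lay below the highest control, and the log2 fold change of 0.42 (SE 0.21, adjusted p = 0.27 in limma) was 0.18 without control replicate 1. Exons of Dvl2 on the opposite strand cover 42.9% of the Acadvl exon bases, and whether the counting of these stranded libraries used strand is not given in the sources used here.

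The enzymes of shorter chains overlapped between the groups. Acadm, the medium-chain enzyme, had 268, 374 and 329 FPKM among controls and 344, 389 and 359 FPKM among knockouts, and Acads, the short-chain enzyme, had 117, 141 and 138 FPKM and 149, 155 and 135 FPKM. Control replicate 2 of Acadm and control replicates 2 and 3 of Acads lay inside the range of the knockouts. Their log2 fold changes were 0.18 and 0.15, with 95% intervals of -0.14 to 0.50 and -0.10 to 0.40 (adjusted p = 0.44 and 0.41 in limma). Without control replicate 1 they were 0.053 and 0.063. Acad9, better known for the assembly of complex I, had 6.34 ± 0.350 and 6.88 ± 0.419 FPKM (SD, n = 3). The 2 least understood members of the family were Acad10, the one gene with a negative fold change (5.61 ± 0.722 and 4.82 ± 0.300 FPKM, log2 fold change -0.18, adjusted p = 0.31 in limma), and Acad11, at 15.7 ± 0.231 and 16.1 ± 1.82 FPKM (SD, n = 3). Of the 50-base words in Acad10 transcripts, 17.1% also occur in other genes, among them Acad12, so reads of the pair can be confused.

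The mitochondrial trifunctional protein carries out the last 3 reactions on long chains, with Hadha as its hydratase and dehydrogenase subunit and Hadhb as its thiolase subunit. The genes lie head to head on chromosome 5, Hadha at 30118304 to 30155162 on the minus strand and Hadhb at 30155248 to 30184593 on the plus strand. Hadha had 126, 197 and 184 FPKM among controls and 208, 239 and 203 FPKM among knockouts. The lowest knockout of Hadha cleared the highest control by little, and limma gave a log2 fold change of 0.38 for Hadha (SE 0.18, adjusted p = 0.24), and 0.18 without control replicate 1. Hadhb was lowest and highest in the same libraries as Hadha, with 144, 247 and 209 FPKM among controls and 233, 270.0 and 228 FPKM among knockouts. In Hadhb control replicate 2 lay above 2 of the knockouts, and limma gave a log2 fold change of 0.31 for Hadhb (SE 0.19, adjusted p = 0.35), and 0.10 without control replicate 1.

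Separate matrix enzymes serve the shorter chains, and none of these differed beyond the spread. Acaa2, the matrix thiolase and the most abundant of them, had 341, 624 and 539 FPKM among controls and 588, 635 and 549 FPKM among knockouts. Control replicate 1 of Acaa2 was far below the other 5 libraries, which lay close together, and the log2 fold change of 0.28 (SE 0.22, adjusted p = 0.45 in limma) was 0.024 without it. Hadh, the short-chain hydroxyacyl-CoA dehydrogenase, had 168 ± 30.9 and 200.1 ± 18.1 FPKM (SD, n = 3), and Echs1, the short-chain hydratase, 66.5 ± 7.83 and 71.0 ± 3.15 FPKM.

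Auxiliary enzymes prepare unsaturated chains for the spiral. Decr1, the dienoyl-CoA reductase and the most abundant of these, had 126, 184 and 160.3 FPKM among controls and 184, 212 and 183 FPKM among knockouts. One control of Decr1 lay within the range of the knockouts, and limma gave a log2 fold change of 0.31 for Decr1 (SE 0.15, adjusted p = 0.25), and 0.16 without control replicate 1. Eci1, an enoyl-CoA isomerase, had 69.8, 114 and 106 FPKM among controls and 111, 121 and 96.1 FPKM among knockouts, with full overlap apart from control replicate 1. Its log2 fold change of 0.20 (SE 0.19, adjusted p = 0.53 in limma) became -0.011 without that library. Eci2, an isomerase also found in peroxisomes, hardly varied, at 15.1, 15.9 and 16.2 FPKM among controls and 15.6, 16.2 and 15.6 FPKM among knockouts (log2 fold change 0.0035, 95% interval -0.16 to 0.17). Control replicate 1 was again the lowest library of Eci2, but by little.

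Electrons from the dehydrogenases pass through the flavoprotein ETF, a dimer of the Etfa and Etfb products, to the Etfdh product and on to ubiquinone. Etfa (chromosome 9, 55454508 to 55512243, minus strand) had 293, 420.4 and 399.7 FPKM among controls and 425, 508 and 395 FPKM among knockouts. One knockout of Etfa lay among the controls, and limma gave a log2 fold change of 0.26 for Etfa (SE 0.17, adjusted p = 0.36), and 0.10 without control replicate 1. Etfdh had 62.5 ± 13.6 and 74.9 ± 7.62 FPKM (SD, n = 3), a log2 fold change of 0.28, and 0.086 without control replicate 1. Etfb (chromosome 7, 43444083 to 43457800, plus strand) had only 1.59, 1.65 and 2.03 FPKM among controls and 1.63, 2.39 and 1.82 FPKM among knockouts, on 26 to 38 reads per library. The log2 fold change of Etfb was 0.093 (SE 0.13, adjusted p = 0.67 in limma), and 0.049 without control replicate 1. The partner subunits thus differed by 185 to 261 times in level per length. Exons annotated to other genes on the same strand, chiefly Gm45233, cover 58.2% of the Etfb exon bases, against 0% for Etfa. Etfb and Cpt1b were the only members with over 50% of their exon bases covered in this way, and the part of that overlap in their low values was not tested.

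Acyl-CoA thioesterases release free fatty acid and coenzyme A, and held the gene with the smallest p of the whole pathway. Acot2, the mitochondrial thioesterase for long chains (chromosome 12, 83987861 to 83993873, plus strand), had 37.1, 41.5 and 32.1 FPKM among controls and 48.7, 54.7 and 46.9 FPKM among knockouts. All knockouts lay above all controls, and here control replicate 1 was the middle one of its group. Limma gave a log2 fold change of 0.44 for Acot2 (SE 0.11, 95% interval 0.17 to 0.70, adjusted p = 0.10). The value of Acot2 was 0.44 with control replicate 1 left out and 0.37 with knockout replicate 2 left out. Acot11 (chromosome 4, 106744555 to 106804998, minus strand), a thioesterase of thermogenic fat that is induced by cold, had 14.2, 32.1 and 33.6 FPKM among controls and 35.6, 51.9 and 47.2 FPKM among knockouts. Control replicate 1 of Acot11 was less than any other library by a wide margin and the other 2 controls came close to knockout replicate 1. Limma gave a log2 fold change of 0.81 for Acot11 (SE 0.32, adjusted p = 0.18), and 0.42 without control replicate 1. Exons of Fam151a on the opposite strand cover 20.9% of the Acot11 exon bases. Acot13, a small thioesterase bound to mitochondria, had 53.1 ± 8.34 and 61.3 ± 9.97 FPKM (SD, n = 3), with overlap.

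Acot1, the cytosolic copy beside Acot2 in the same gene cluster (chromosome 12, 84009490 to 84018371, plus strand), had 2.05, 1.47 and 1.79 FPKM among controls and 2.17, 2.19 and 1.15 FPKM among knockouts, with overlap and a log2 fold change of 0.017 (SE 0.17, adjusted p = 0.96 in limma). The coding sequences of both genes are 95.6% identical over 1236 aligned bases and share an unbroken run of 273 bases. Of the 50-base words in their transcripts, 27.7% for Acot2 and 19.2% for Acot1 occur in other genes, among them other Acot genes, so reads may have been lost or exchanged between them. The end of the shared run and the bases after it show how alike they are. The 90 coding bases below are from GENCODE M21 transcripts (mm10, plus strand), chr12:84017249-84017338 for Acot1 and chr12:83992971-83993060 for Acot2, and capitals mark the 5 aligned bases that differ.
Acot1: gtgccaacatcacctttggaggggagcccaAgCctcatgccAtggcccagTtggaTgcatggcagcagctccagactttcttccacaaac
Acot2: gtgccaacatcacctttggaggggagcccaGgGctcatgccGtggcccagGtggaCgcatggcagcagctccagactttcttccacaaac

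Another Acot gene, Acot4, a peroxisomal thioesterase chosen after its values were seen, lay on the other side of 0 from Acot2. It had 6.41, 5.28 and 3.92 FPKM among controls and 3.13, 2.71 and 3.51 FPKM among knockouts, without overlap (log2 fold change -0.58, SE 0.16, adjusted p = 0.11 in limma). Of all genes tested, 22.7% were lower without overlap. Acot6 overlapped and lay above 0 (log2 fold change 0.20, SE 0.13, adjusted p = 0.36 in limma). Acot3 and Acot5 fell short of the mean of 1 FPKM.

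To set members beside each other at 1 depth, 9 ratios of members were compared within each library. With 3 libraries a group an exact two-sided permutation test cannot give a p below 0.10, and adjusted over the 9 ratios none was below 0.225. In 4 ratios the groups did not overlap. Acsl1 relative to the sum of Acsl3, Acsl4 and Acsl5 was 12.2, 6.75 and 6.35 in controls and 4.94, 4.29 and 6.05 in knockouts (exact permutation p = 0.10). Cpt2 relative to Slc25a20 was 2.81, 2.36 and 2.34 in controls and 1.96, 1.95 and 2.07 in knockouts (exact permutation p = 0.10). The knockouts of both ratios were all lower, and control replicate 1 was the highest library in each. Without it the log2 difference of the Acsl1 ratio went from -0.68 to -0.38 and that of the Cpt2 ratio from -0.32 to -0.24. Acadl relative to Acadvl was 2.78, 2.52 and 2.64 in controls and 2.504, 2.24 and 2.29 in knockouts, with the groups separated by less than the spread within them. Hadha relative to Hadhb was 0.870, 0.800 and 0.884 in controls and 0.889, 0.884 and 0.890 in knockouts. That separation is of no size, since the lowest knockout and the highest control are equal to 3 digits. The ratio of Cpt1b to Cpt1a overlapped between groups, at 0.0781, 0.299 and 0.160 in controls and 0.283, 0.359 and 0.350 in knockouts (exact permutation p = 0.20), and control replicate 1 was the lowest library. The ratios of Etfa to Etfb, Acadm to Acads, Acot2 to Acot1 and Eci1 to Eci2 also overlapped.

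**Figure D5:**
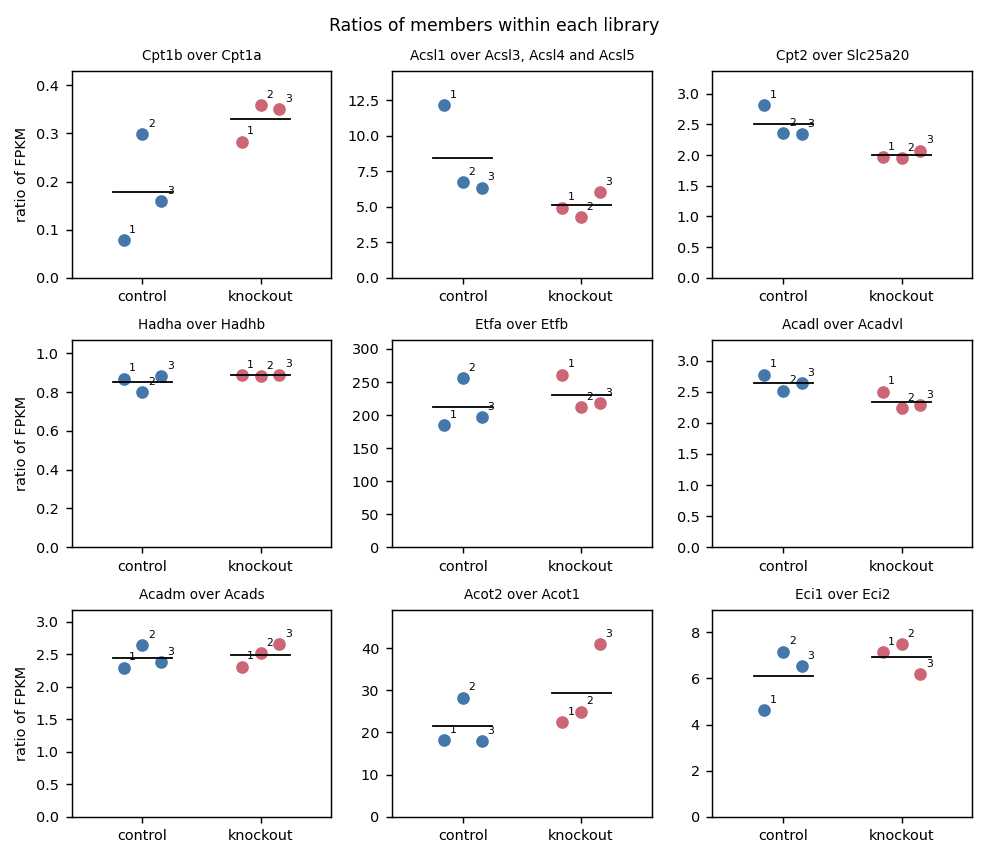
Each panel shows the ratio of the FPKM of 2 genes (or of Acsl1 to the sum of 3) in each library, numbered by replicate, on an axis from 0, with a bar at the group mean. The 3 knockouts lie below the 3 controls in the Acsl1, Cpt2 and Acadl panels and above them in the Hadha panel.

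Regulators of the pathway were read from a further list, which shares Ppargc1a with the thermogenic markers above. Of 25 genes listed as regulators or well-known targets, 24 were tested, and 10 of them were higher and 3 lower in the knockouts at an unadjusted p of 0.05 (41.7% and 12.5%, against 6.98% and 17.1% of all genes tested), with 0 passing over all genes tested and a median log2 fold change of 0.16. Without control replicate 1, 8 were higher and 2 lower (33.3% and 8.33%, against 5.10% and 14.5% of all genes tested). The 4 with the smallest p were all higher without overlap, as were 8.48% of all genes tested. Ppargc1b, a PGC-1 coactivator of oxidative genes, had 6.92, 9.004 and 8.12 FPKM among controls and 11.5, 14.6 and 13.6 FPKM among knockouts (log2 fold change 0.66, adjusted p = 0.077 in limma). Its relative Ppargc1a had 5.65, 8.02 and 5.44 FPKM and 12.2, 20.8 and 12.1 FPKM (log2 fold change 1.10, adjusted p = 0.082 in limma). Esrra, the nuclear receptor ERR alpha, had 24.2, 24.0 and 27.4 FPKM and 37.3, 38.6 and 30.6 FPKM (log2 fold change 0.47, adjusted p = 0.088 in limma). Lpin1, a phosphatidate phosphatase that also acts as a coactivator, had 59.0, 48.5 and 50.5 FPKM and 69.7, 66.6 and 63.9 FPKM (log2 fold change 0.34, adjusted p = 0.11 in limma). Without control replicate 1 the log2 fold changes of these 4 were 0.57, 1.03, 0.45 and 0.42.

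Receptors and brakes, named after their values were seen, complete the list. Ppara, the receptor that drives many of these enzymes, had 10.1, 17.5 and 18.02 FPKM among controls and 20.3, 25.9 and 22.3 FPKM among knockouts, with a log2 fold change of 0.59 and of 0.34 without control replicate 1. Pdk4, a kinase that turns mitochondria from glucose to fat, had 166, 375 and 359 FPKM among controls and 454, 537 and 512 FPKM among knockouts, again lowest in control replicate 1. Acacb, which makes the malonyl-CoA that Mlycd removes, was higher too, at 136 ± 9.56 and 160.4 ± 10.1 FPKM (SD, n = 3). The corepressor genes Nrip1 and Ncor1 were lower in every knockout than in any control, as were 22.7% of all genes tested. Nrip1 had 12.0 ± 1.01 and 8.99 ± 1.73 FPKM, and Ncor1 17.0 ± 1.66 and 13.6 ± 0.194 FPKM (SD, n = 3). Their adjusted p in limma was 0.15 and 0.12. Of the 25 genes listed, these 2 were the only ones lower without overlap.

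Another list held 34 other genes of fatty acid and acyl-CoA oxidation, of which 29 were tested. At an unadjusted p of 0.05, 4 were higher and 4 lower (13.8% each, against 6.98% and 17.1% of all genes tested), with 0 passing over all genes tested and a median log2 fold change of 0.087. Without control replicate 1, 2 were higher and 4 lower (6.90% and 13.8%, against 5.10% and 14.5%), and the median was -0.014. Acsm5, a medium-chain acyl-CoA synthetase of mitochondria, had 3.74, 4.79 and 2.91 FPKM among controls and 1.71, 1.21 and 1.77 FPKM among knockouts (log2 fold change -0.90, adjusted p = 0.077 in limma). Mcee, the methylmalonyl-CoA epimerase of odd-chain breakdown, had 40.4, 42.6 and 50.03 FPKM and 66.4, 72.1 and 58.7 FPKM (log2 fold change 0.56, adjusted p = 0.082 in limma). Echdc2, a hydratase-like protein, had 19.6, 17.3 and 16.4 FPKM and 14.3, 11.4 and 11.7 FPKM, and Acad12, a close relative of Acad10, 5.10, 5.70 and 5.57 FPKM and 4.55, 4.26 and 3.70 FPKM. Both lay lower in every knockout than in any control, as Acsm5 did. Of the 29 tested, 4 lay lower without overlap, against 22.7% of all genes tested. The log2 fold changes of Echdc2 and Acad12 were -0.48 and -0.32 (adjusted p = 0.088 and 0.11 in limma).

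Promoters were read for the motifs that PPAR, ERR and cAMP-responsive factors are known to bind. RefSeq (GRCm38.p6, the build of mm10) gave 29 windows of 300 bases, from 250 before to 50 after a transcript start, for 27 of the 33 genes. The core motif of the nuclear receptors, AGGTCA, searched on both strands, was in 4 of the 29 windows (13.8%), against 16.3% of all 32851 windows. The longer ERR motif TCAAGGTCA, which contains the core motif, was in none of the 29 and in 0.423% of all. The direct repeat of AGGTCA with 1 base between, the form PPAR binds, was in none (0.0396% of all), nor was it with 1 mismatch allowed (0.554% of all). The cAMP response element TGACGTCA was in none (1.79% of all). For longer motifs this rare over all windows, no match in 29 windows is an ordinary outcome. The 4 matches are shown with the bases around them, read along the strand of the gene, and capitals mark AGGTCA or its reverse complement.
Acadm, chr3:153944867-153944893, minus strand: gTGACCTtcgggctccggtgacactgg
Acadvl, chr11:70015490-70015535, minus strand: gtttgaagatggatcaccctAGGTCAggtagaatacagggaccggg
Cpt1a, chr19:3323187-3323232, plus strand: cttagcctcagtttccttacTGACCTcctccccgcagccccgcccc
Echs1, chr7:140116479-140116524, minus strand: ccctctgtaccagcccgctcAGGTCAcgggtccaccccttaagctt

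A match is a description of the letters, not a bound site. None of these 4 genes is among the 7 with an unadjusted p under 0.05, of which at least Cpt1b had no window to search. With so few genes on either side, having none in common cannot show whether the motif goes with the higher values. The windows of Acot2 (chr12:83987611-83987910, plus strand) and Slc25a20 (chr9:108661886-108662185, plus strand), the 2 genes with the smallest p, are shown whole and hold none of the motifs searched, so they carry no capitals.
Acot2: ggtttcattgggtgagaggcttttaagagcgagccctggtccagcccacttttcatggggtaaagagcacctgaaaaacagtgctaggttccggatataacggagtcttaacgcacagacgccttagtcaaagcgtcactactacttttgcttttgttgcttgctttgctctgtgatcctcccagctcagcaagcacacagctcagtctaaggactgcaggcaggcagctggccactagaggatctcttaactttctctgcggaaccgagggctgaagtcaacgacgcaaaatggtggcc
Slc25a20: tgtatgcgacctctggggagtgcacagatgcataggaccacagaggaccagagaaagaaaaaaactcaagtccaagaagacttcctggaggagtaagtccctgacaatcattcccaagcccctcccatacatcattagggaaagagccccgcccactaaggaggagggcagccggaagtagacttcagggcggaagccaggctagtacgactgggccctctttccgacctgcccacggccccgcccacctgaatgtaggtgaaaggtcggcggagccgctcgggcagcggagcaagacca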

How the data were processed

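Per the labels' protocols, the 6 libraries came from total RNA of homogenised fat and a kit for stranded mRNA sequencing. The authors deposited 1 table of FPKM values per gene and library; the submitters' processing notes name cutadapt, HISAT2, HTSeq and mm10. For their versions, the gene annotation and the strand setting, nothing is given in the sources used here.

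Whole reads were recovered from the deposited FPKM and GENCODE M21 exon lengths: of values of up to 50 reads, 97.9 to 98.1% per library came out whole within 0.05. They served for depth and for voom, which called 0 genes at an adjusted p of 0.05. Cpt1b, Etfb and Acot1 rest on the fewest reads. The main test was limma 3.58.1 with a mean-variance trend (R 4.3.3) on log2(FPKM + 1) over genes that averaged 1 FPKM or more among controls or among knockouts, with Benjamini-Hochberg adjustment over all of them. Fold changes on this scale understate those of low genes. Within-library ratios had an exact permutation test. The limma script was tested on simulated data.

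The 33 members and all lists were chosen with earlier results of these data known. Values in every library are given for members with an unadjusted p under 0.05, without overlap, most abundant in their step or in a ratio, and for the 4 genes of smallest p in each further list. Alternatives were another pseudocount, 2 other filters, a replicate block, median-of-ratios scaling, voom on recovered reads and leaving out each library. Same-numbered libraries did not deviate together and were not treated as pairs in the main test, which does not show that they were unpaired.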

Additional observations from a re-analysis of the deposited data

How the results depend on the processing

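No member passed an adjusted p of 0.05 under any of the 12 alternatives, where the lowest was 0.0807. The number of members higher at an unadjusted p of 0.05 (7) became 14 (42.4%) both with voom on recovered reads and after scaling by the median of ratios (12.0% and 13.0% of all genes tested), and ran from 1 to 11 when 1 library was left out: 1 without knockout replicate 2, 4 without knockout replicate 1 and 11 without control replicate 2. The number lower (0) ran from 0 to 1, with 1 without control replicate 3. The median log2 fold change ran from 0.099 without control replicate 1 to 0.33 without knockout replicate 3, and was 0.35 with median-of-ratios scaling and 0.34 with voom. With the replicate number as a block, 9 members were higher (27.3%, against 5.92% of all genes tested), 0 passed an adjusted p of 0.05 and the median was 0.25. The correlations of same-numbered libraries were 0.066, 0.031 and -0.256, and control replicate 1 correlated best with knockout replicate 3. With 3 libraries a group, such correlations cannot decide whether same-numbered libraries were paired.

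Of 393 log2 fold changes of single members under alternatives, 14 changed sign, in 7 genes. With 1 library left out, Acsl1 ran from -0.055 (without control replicate 3) to 0.11, and was also below 0 without control replicate 2 (-0.024) and knockout replicate 2 (-0.015). Cpt1a ran from -0.077 (control replicate 1) to 0.17, and was also below 0 without control replicate 2 (-0.071) and knockout replicate 1 (-0.030). Acot1 ran from -0.079 (knockout replicate 2) to 0.21, and was also below 0 without control replicate 2 (-0.063) and knockout replicate 1 (-0.075). Eci2 ran from -0.025 (control replicate 1) to 0.025, with -0.013 without knockout replicate 2. Eci1 ran from -0.011 (control replicate 1) to 0.34, Acad11 from -0.053 (knockout replicate 2) to 0.089 and Etfb from -0.014 (knockout replicate 2) to 0.17. The log2 difference in the ratio of Acadm to Acads ran from -0.015 (knockout replicate 3) to 0.092, with -0.010 without control replicate 1. The cause of these shifts was not tested. Depth limits Cpt1b, Etfb and Acot1 most.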

Other observations

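Genes that finish the oxidation of odd and branched chains, grouped after their values were seen, did not move as a block. Of the propionyl-CoA route, Mcee was described above. Pcca, a subunit of propionyl-CoA carboxylase, had 35.4, 49.0 and 51.8 FPKM among controls and 54.0, 63.6 and 53.9 FPKM among knockouts. It was higher without overlap, as were 8.48% of all genes tested, and lowest in control replicate 1. The log2 fold change of Pcca was 0.34 (adjusted p = 0.23 in limma), and 0.17 without that library. Its partner subunit Pccb overlapped, at 150.2 ± 14.3 and 146 ± 3.16 FPKM (SD, n = 3), as did the mutase Mmut, at 66.5 ± 4.99 and 63.9 ± 2.92 FPKM.

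Dehydrogenases of amino acid breakdown, relatives of the 7 members above, had log2 fold changes below 0, as did most genes tested (34.0% were above 0). Acadsb, the short/branched-chain enzyme, had 35.3, 37.7 and 33.6 FPKM among controls and 30.9, 28.5 and 31.2 FPKM among knockouts. It was lower without overlap, as were 22.7% of all genes tested (log2 fold change -0.23, adjusted p = 0.15 in limma). Ivd, of leucine breakdown, had 73.8, 77.2 and 56.0 FPKM among controls and 59.1, 52.5 and 54.5 FPKM among knockouts, with overlap (log2 fold change -0.30). Acad8, of valine breakdown, and Gcdh, of lysine breakdown, overlapped, with log2 fold changes of -0.036 and -0.013, which were above 0 with median-of-ratios scaling (0.057 and 0.08) and with voom (0.048 and 0.077). Gcdh was also above 0 without control replicate 2 (0.093) and without knockout replicate 2 (0.003). Myoglobin (Mb), an oxygen-binding protein of muscle and brown fat and the single gene past an adjusted p of 0.05, had 1.28, 0.917 and 0.873 FPKM among controls and 9.11, 14.2 and 7.97 FPKM among knockouts (log2 fold change 2.46, adjusted p = 0.042 in limma). The part of muscle RNA in the Mb values was not tested.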
